A study of Saccharomyces cerevisiae with 14 samples.

Results

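The comparison described here is that of budding yeast 7 min after a pulse of glutamine with the same kind of culture 10 min before it, at steady state on proline. It takes the 3 arrays labelled 7 min and the 3 labelled -10 min, 6 of the 14 arrays of the series, and pairs them by the experiment codes BY003, BY008 and BY012. All arrays held RNA of the wild-type Saccharomyces cerevisiae strain YSBN6. The medium of the batch fermentor held 20 g/L glucose and 200 mg/L proline, was kept at 30 °C and pH 5, and received glutamine to 400 mg/L while growth was exponential. The -10 min group had proline as its nitrogen source, and the 7 min group had glutamine beside what was left of the proline. The design text calls the arrays biological triplicates, and the labels do not say whether the times of an experiment came from the same culture. Genes of ribosome biogenesis and of nitrogen catabolite repression and nitrogen use (341 genes on 2 lists) were tested with the rest but are not described as groups. The lists do not hold every gene of these functions. Members that are also on another list, such as VID30, ATG1 and YGK3, are counted in that list.

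Yeast takes up preferred nitrogen sources such as glutamine first and represses the enzymes for poor ones such as proline. The TORC1 complex and protein kinase A are known to pass on such a change of nutrients, and both raise growth genes and lower stress and reserve genes in this organism. A shift to a richer source can change many transcripts within minutes, and many yeast mRNAs are short-lived. Synthesis and decay of mRNA were not measured here.

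Of 5449 S. cerevisiae genes tested, 982 (18.0%) were higher and 2321 (42.6%) were lower at 7 min at an adjusted p under 0.05 (limma with experiment as a block and Benjamini-Hochberg adjustment), 60.6% in all. The median gene itself shifted by -0.33 on the log2 scale, by -0.21 in BY003, -0.31 in BY008 and -0.45 in BY012. Once array medians were subtracted, the split was 1271 higher and 1663 lower, and after quantile normalization it was 1238 higher and 1765 lower. A gene is therefore said here to have risen or fallen only where it passed 0.05 with the same sign both on the deposited scale and after median subtraction, which 982 genes (18.0%) did upward and 1663 (30.5%) downward. Values given for single genes are on the deposited scale, as log2 intensity or as the log2 difference of 7 min minus -10 min ± SE, with 3 arrays per time. Without experiment BY003, 646 rose and 922 fell, and without the 7 min array of BY012, 692 rose and 1035 fell. Levels of the 3 arrays did not overlap between the times for 1060 genes (19.5%) upward and 2409 (44.2%) downward.

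The 6 arrays had median intensities from 201 to 279 over all probe sets. The 3 -10 min arrays correlated with each other over genes at r from 0.93 to 0.97, and the 7 min arrays at r from 0.96 to 0.98, where genes are not independent replicates. That of BY012 before the pulse differed most from its group: 32 genes exceeded both other -10 min arrays by 4-fold or more, and 11 were lower by as much. The corresponding counts were 6 and 1 for BY003 and 2 and 2 for BY008. Probe sets annotated to genes outside the S. cerevisiae reference had median log2 values from 4.61 to 4.84. They were taken to be for Schizosaccharomyces pombe, which has no target in these samples. The number of arrays limits the precision, and in such bulk RNA fewer cells in a given state and less RNA per cell cannot be told apart.

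**Figure D1:**
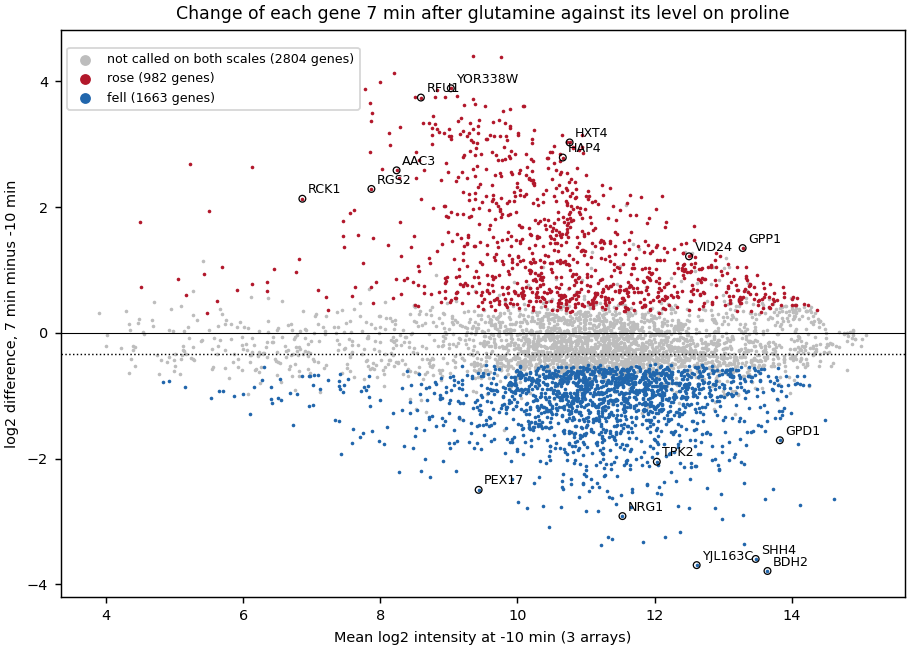
Each point is a gene, with its mean log2 intensity in the 3 -10 min arrays on the x axis and the fitted log2 difference on the y axis. The dotted line marks the median of all genes (-0.33), red points the 982 genes that rose and blue points the 1663 that fell, and circles mark genes named in the text.

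Outside the 2 lists left aside, 738 genes rose and 1613 fell of 5108. Rises of at least 2 on the log2 scale numbered 84 and falls of that size 109, and beyond 3 there were 20 rises and 8 falls. Genes that rose started at a median log2 level of 10.72 and stood at 11.90 at 7 min, and genes that fell went from 11.26 to 10.15. The plot of change against level shows the largest rises among genes of low and middle level on proline, while several of the largest falls began near the top of the range.

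The largest rise was that of YOR338W, a gene of unknown function. Its log2 intensity was 8.55, 8.60 and 9.94 at -10 min and 12.98, 12.44 and 13.33 at 7 min in BY003, BY008 and BY012, the order used throughout, a difference of 3.89 ± 0.23, adjusted p = 3.4e-05. The 7 min arrays lay far above all -10 min arrays, although the -10 min array of BY012 was the highest of its group. ATC1, whose product takes part in cation homeostasis, stood at 8.41, 7.68 and 7.24 at -10 min and 11.69, 11.53 and 11.73 at 7 min (difference 3.87 ± 0.25, adjusted p = 4.17e-05). Its 7 min arrays were nearly equal. RFU1, for an inhibitor of the deubiquitinating enzyme Doa4, stood at 9.06, 8.27 and 8.44 at -10 min and 12.50, 12.07 and 12.42 at 7 min (difference 3.74 ± 0.17, adjusted p = 3.4e-05), again with no overlap. Genes that modify RNA or protein were among the 20 largest rises. The tRNA modification genes TRM11 and DUS3 rose by 3.21 ± 0.24 and 3.18 ± 0.29. HMT1, for the main arginine methyltransferase, went from 10.08, 9.63 and 9.48 to 13.17, 13.04 and 13.13 (difference 3.38 ± 0.16, adjusted p = 3.4e-05). These groups did not overlap.

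Nucleotide supply was another function among these 20. IMD4, for IMP dehydrogenase of the guanine nucleotide branch, rose by 3.61 ± 0.23, URA7, for CTP synthase, by 3.52 ± 0.28, AAH1, for adenine deaminase, by 3.14 ± 0.27, and RKI1, for ribose-5-phosphate isomerase, by 3.36 ± 0.28. RKI1 levels were 10.45, 9.36 and 9.14 at -10 min and 13.06, 12.81 and 13.16 at 7 min, so that the 7 min arrays were alike and the -10 min arrays were spread. Of proteins that bind mRNA, VTS1 rose by 3.14 ± 0.14 and SRO9 by 3.15 ± 0.23. VTS1 levels were 9.17, 8.72 and 9.21 at -10 min and 12.27, 11.86 and 12.38 at 7 min, and its differences in the 3 experiments lay between 3.10 and 3.17. At the plasma membrane the exporter gene AQR1 rose by 3.04 ± 0.30 and the hexose transporter gene HXT4 by 3.03 ± 0.17. The other rises among the 20 were those of ECM13, YBR238C, SRP40, RRT14, BMT5 and BMT6. BMT5 and BMT6 encode ribosomal RNA methyltransferases and so belong to ribosome biogenesis, but were on neither list left aside. ECM13 rose in every experiment (3.42 ± 0.20, adjusted p = 3.49e-05), yet its levels overlapped between the times, at 9.08, 7.36 and 11.09 at -10 min and 12.81, 11.00 and 13.96 at 7 min, since the experiments differed in level before the pulse. The highest adjusted p among the 20 was 0.000188 (limma), or 0.00416 with any one experiment or array left out.

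The largest falls began with BDH2, for a dehydrogenase similar to butanediol dehydrogenase. Its log2 intensity was 13.31, 13.39 and 14.24 at -10 min and 9.56, 10.22 and 9.80 at 7 min (difference -3.79 ± 0.26, adjusted p = 4.99e-05), a loss from near the top of the measured range. SHH4, a paralog of a succinate dehydrogenase membrane subunit, stood at 13.21, 13.05 and 14.17 at -10 min and 9.79, 9.43 and 10.42 at 7 min (difference -3.59 ± 0.14, adjusted p = 3.4e-05). YJL163C, of unknown function, fell by a similar amount (-3.69 ± 0.20). All 20 of the largest falls had no overlap between the times, against 44.2% of all genes downward. They were picked by size from these same arrays, so a lack of overlap largely follows from the choice. Cell surface and stress genes were among them. WSC4, for a sensor of the cell surface, stood at 11.92, 12.13 and 11.43 at -10 min and 8.85, 8.31 and 8.35 at 7 min (difference -3.33 ± 0.23, adjusted p = 4.99e-05), SDP1, for a phosphatase of the kinase Slt2, changed by -3.36 ± 0.39, and HSP42, for a small heat shock protein, by -2.96 ± 0.23. Glycogen genes in this set were PIG2, for a subunit that directs a phosphatase to glycogen metabolism (-3.25 ± 0.35), and GLC3, for the branching enzyme (-2.90 ± 0.40). RTC2, for a vacuolar amino acid transporter, changed by -3.17 ± 0.30, and AVT2, of a family of vacuolar transporters, by -2.83 ± 0.18.

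Cell cycle inhibitors and regulators fell within the same 20. ACM1, for an inhibitor of the anaphase-promoting complex with Cdh1, stood at 11.19, 11.64 and 11.29 at -10 min and 7.93, 8.84 and 7.50 at 7 min (difference -3.28 ± 0.19, adjusted p = 3.4e-05). MSA2, whose product binds the G1 factors SBF and MBF, changed by -2.72 ± 0.19. MPO1, for an enzyme of phytosphingosine breakdown, changed by -2.83 ± 0.16, and AMD2, for a putative amidase, by -2.79 ± 0.31. The remaining falls were those of NRG1, CIN5, RTC3, YOR186W, HLR1 and SPG1. The highest adjusted p among these 20 was 0.00111 (limma), or 0.0116 with any one experiment or array left out.

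**Figure D2:**
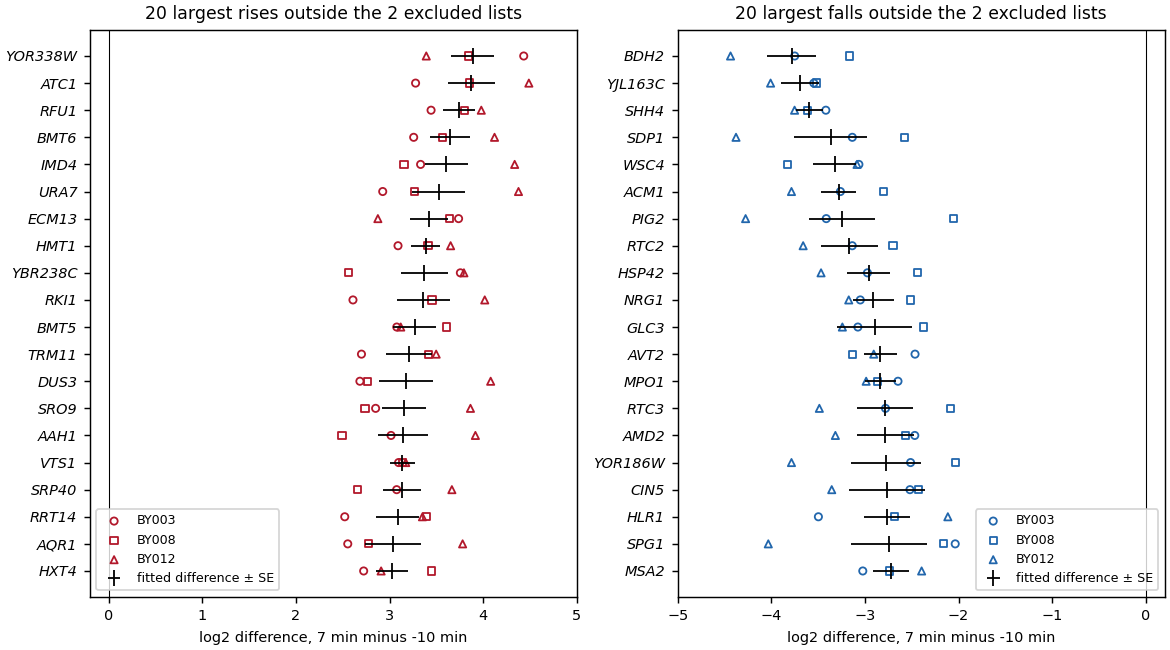
The 20 largest rises (left) and falls (right) outside the 2 lists left aside, as log2 differences of 7 min minus -10 min. Open symbols are the 3 experiments and black marks the fitted difference ± SE, and every symbol lies more than 2 away from 0.

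Experiment BY008 also had an array at 3 min, which shows how far these genes had moved by then. That array has no replicate, and it is set against the same -10 min array as the 7 min array, so its values are a description. All 20 of the largest rises were at least 1 higher at 3 min on the log2 scale, with differences from 1.02 to 3.40 and a median of 2.06, against a median of 3.40 at 7 min in that experiment. Of the 20 largest falls, 4 were at least 1 lower at 3 min. Their differences lay between -1.45 and 0.01 with a median of -0.61, against -2.63 at 7 min. Relative to their own later change, these 20 rises were thus further along in that array than these 20 falls. How many of all genes moved by 1 or more in it was not counted, so these counts have no background. The median gene level of BY008 was 11.05 before the pulse, 11.14 in this array and 10.89 in the later one. Both sets of genes were picked by differences that include the BY008 array before the pulse.

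A set of 48 gene lists by function is described by counts and medians, and none was tested as a list. The background for each is the 18.0% of all genes that rose, the 30.5% that fell and the median difference of -0.33. The shares of members that rose or fell ranged from nearly all members in 1 direction to almost no calls.

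**Figure D3:**
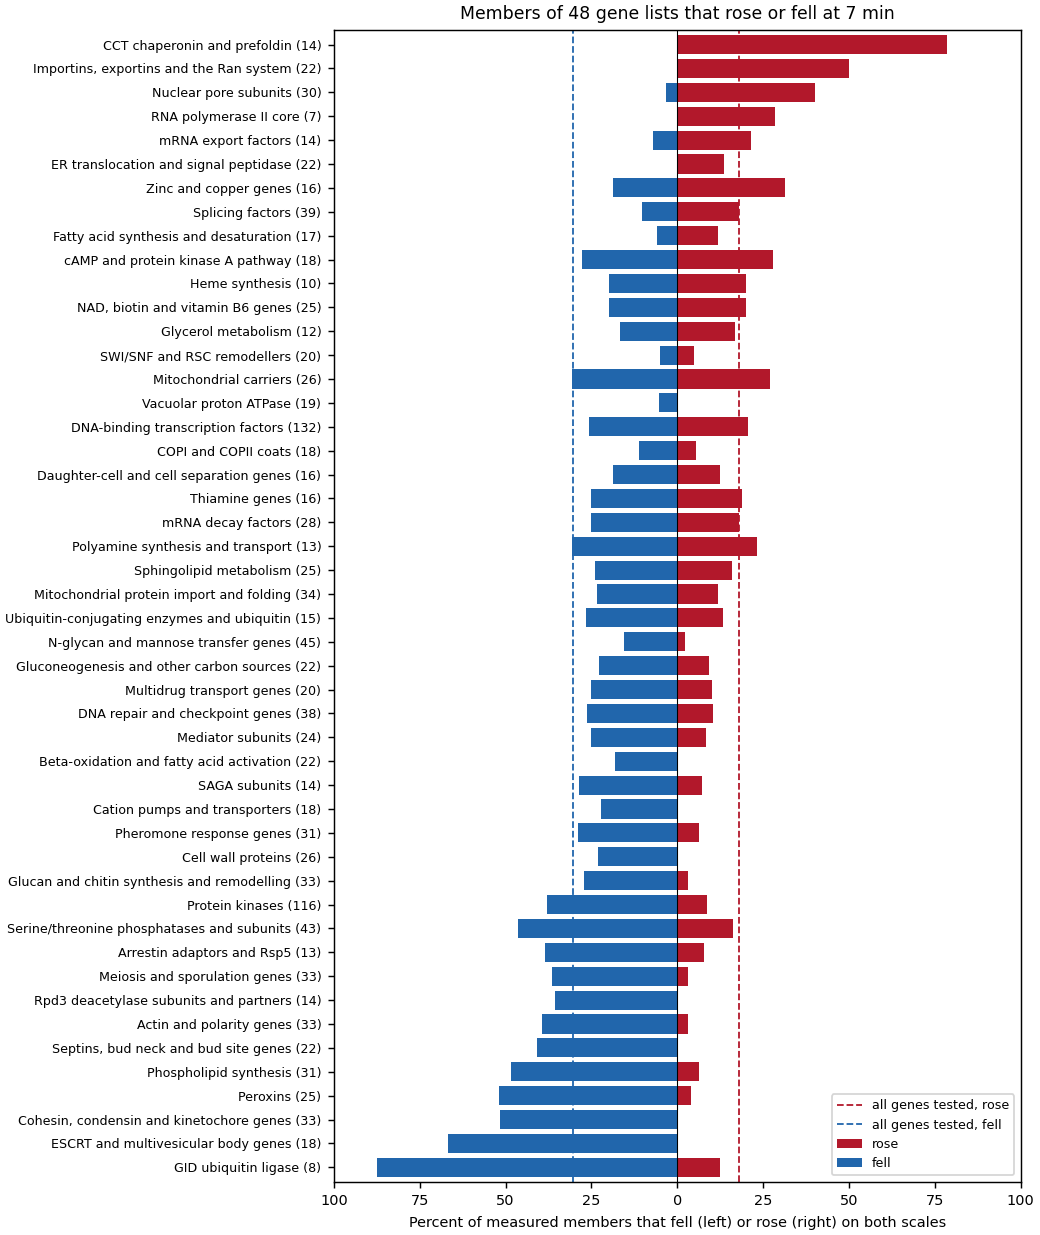
For each of 48 lists, with the number of measured members in brackets, bars give the percent of members that rose (right, red) or fell (left, blue), and dashed lines the same for all genes tested (18.0% and 30.5%). The chaperonin and nuclear transport lists stand at the upper end and the GID ligase, ESCRT, kinetochore and peroxin lists at the lower end.

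Genes of the importin, exportin and Ran list and of the nuclear pore list were called upward more often than downward. Of 22 importin, exportin and Ran genes, 11 rose and 0 fell, with a median difference of 0.39 (0.35 in BY003, 0.26 in BY008 and 0.56 in BY012). SXM1, for an importin that carries among others the La protein, stood at 11.04, 10.99 and 10.60 at -10 min and 12.34, 12.37 and 12.48 at 7 min (difference 1.53 ± 0.15, adjusted p = 0.000198). LOS1, the tRNA exportin gene, stood at 9.75, 9.93 and 9.86 at -10 min and 11.31, 11.04 and 11.68 at 7 min (2.83-fold higher, adjusted p = 0.00042), and PSE1, for an importin of ribosomal proteins, rose by 1.37 ± 0.16. In all 3 genes every 7 min array was above every -10 min array. Of 30 nuclear pore subunits 12 rose and 1 fell (median 0.25), with rises of NUP100 (1.18 ± 0.13), NUP1 (1.15 ± 0.13) and POM34 (1.12 ± 0.15) and a fall of GLE1 (-0.61 ± 0.12), which encodes an mRNA export factor at the pore. Of 14 mRNA export factors 3 rose (21.4%) and 1 fell, with a median difference of -0.03, and without BY003 1 rose and 0 fell. The importin count was 5 without BY003. The pore count was 5 without BY003, 6 without BY008, 7 without BY012, 6 without the 7 min array of BY003 and 5 without that of BY012.

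Genes of the cytosolic folding machines for actin and tubulin were called in the same direction. Of 14 genes of the CCT chaperonin and of prefoldin, which hands unfolded actin and tubulin to it, 11 rose and 0 fell (78.6%), with a median difference of 0.49. Changes were modest. The prefoldin gene GIM3 stood at 11.05, 11.28 and 10.62 at -10 min and 12.54, 12.07 and 12.25 at 7 min (difference 1.30 ± 0.18, adjusted p = 0.00076), the prefoldin gene PAC10 rose by 0.99 ± 0.18, and the chaperonin gene CCT7 by 0.71 ± 0.13. Their groups did not overlap. The count depended on single experiments and arrays. It was 3 without BY003, 7 without BY012, 7 without the -10 min array of BY003, 6 without the 7 min array of BY003 and 5 without that of BY012. Before the pulse its members had a median of -0.32 in the BY012 array against the mean of the other -10 min arrays, and 8 members rose without that array.

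Lists of other RNA pathways held calls in both directions, with shares of rises near that of all genes. Of 28 mRNA decay factors 5 rose (17.9%) and 7 fell, a share below the 30.5% of all genes. NMD2 and UPF3, for proteins of nonsense-mediated decay, rose by 0.84 ± 0.17 and 0.83 ± 0.13. EDC1 and EDC2, for activators of decapping, fell, with differences of -1.52 ± 0.14 and -1.15 ± 0.12, and so did SKI7, which links the exosome to the Ski complex (-1.11 ± 0.13). EDC1 levels were 10.68, 10.96 and 11.19 at -10 min and 9.41, 9.40 and 9.47 at 7 min, with nearly equal values at 7 min. Of 39 splicing factors 7 rose (17.9%) and 4 fell (10.3%). PRP11, for a subunit of the SF3a complex, went from 9.64, 9.64 and 9.65 to 11.21, 10.97 and 11.34 (difference 1.52 ± 0.13, adjusted p = 9.78e-05), and PRP4, for a protein of the U4/U6 particle, from 10.83, 10.83 and 11.06 to 9.80, 9.74 and 9.85 (difference -1.11 ± 0.12, adjusted p = 0.000263). Both were steady among replicates. Of 7 core subunits of RNA polymerase II 2 rose, RPB9 (1.11 ± 0.19) and RPB3 (0.80 ± 0.16). With any one experiment or array left out, the decay list held 2 to 4 rises and 3 to 5 falls and the splicing list 1 to 8 rises and 1 to 4 falls, and without BY003 each count was at its lowest.

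Of 132 DNA-binding transcription factors, 27 rose and 34 fell, shares of 20.5% and 25.8%. HAP4 showed the largest rise among them. It encodes the regulatory subunit of the Hap complex, which activates respiratory genes. Its levels were 10.62, 9.37 and 11.99 at -10 min and 13.52, 12.91 and 13.91 at 7 min (difference 2.79 ± 0.34, adjusted p = 0.000491), and although the 7 min arrays were above all -10 min arrays, the -10 min array of BY012 was well above the other -10 min arrays. HAP2, for a DNA-binding subunit of the same complex, fell. It stood at 10.78, 10.51 and 11.17 at -10 min and 8.75, 8.94 and 8.56 at 7 min (difference -2.07 ± 0.20, adjusted p = 0.000188). The other DNA-binding subunits, named here after their values were seen, were HAP5, which fell (-1.23 ± 0.14), and HAP3, at 0.26 ± 0.14 (adjusted p = 0.131, limma). ROX1, for the repressor of hypoxic genes, rose by 1.96 ± 0.16.

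Activators of biosynthesis were among the other rises. BAS1, for an activator of purine and histidine genes, stood at 10.84, 10.09 and 11.22 at -10 min and 12.86, 12.51 and 12.87 at 7 min (difference 2.03 ± 0.18, adjusted p = 0.000138), PPR1, for the activator of pyrimidine genes, rose by 1.90 ± 0.16, and SUT1, for a factor in sterol uptake, by 1.96 ± 0.12. STP4, a zinc finger gene, rose by 2.27 ± 0.32. SUT1 was tight in both groups, at 9.38, 9.32 and 9.34 at -10 min and 11.40, 11.35 and 11.18 at 7 min. Repressors of glucose-repressed genes were among the falls. NRG1, the largest fall of the list, stood at 11.63, 10.66 and 12.30 at -10 min and 8.58, 8.15 and 9.13 at 7 min (difference -2.91 ± 0.22, adjusted p = 6.7e-05), and NRG2 at 13.11, 12.61 and 13.19 at -10 min and 10.22, 10.52 and 10.49 at 7 min (difference -2.57 ± 0.20, adjusted p = 6.79e-05). Neither overlapped between the times. The stress repressor gene XBP1 changed by -2.57 ± 0.25, CIN5, for a bZIP factor of the Yap family, by -2.77 ± 0.40, and INO4, for a subunit of the activator of phospholipid genes, by -2.09 ± 0.16. In the -10 min array of BY012 the list's median deviation from the other -10 min arrays was 0.41, against 0.11 for all genes. Without that array 26 rose and 32 fell, and without BY003 15 rose.

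**Figure D4:**
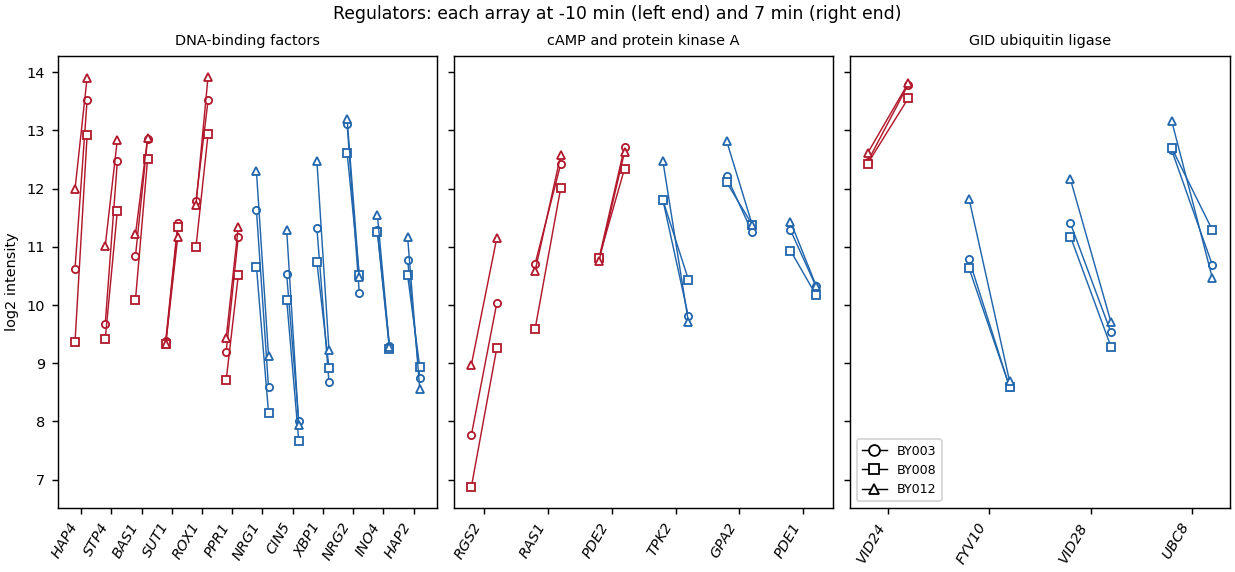
Log2 intensity of regulators in each array, with the -10 min array at the left end and the 7 min array of the same experiment at the right end of each line. Red genes rose and blue genes fell, and in each gene shown all 3 lines run the same way.

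Genes of the cAMP pathway, which controls protein kinase A, moved in both directions, 5 up and 5 down of 18. Upstream, RAS1, for a GTPase that activates adenylate cyclase, stood at 10.71, 9.60 and 10.59 at -10 min and 12.42, 12.01 and 12.58 at 7 min (difference 2.04 ± 0.25, adjusted p = 0.000462). On the other input, through the G protein Gpa2, the inhibitor gene RGS2 stood at 7.76, 6.87 and 8.97 at -10 min and 10.04, 9.27 and 11.16 at 7 min (difference 2.29 ± 0.12, adjusted p = 3.4e-05). The experiments differed widely in RGS2 level but by much the same step. GPA2 itself fell (-1.04 ± 0.21). Of the phosphodiesterase genes, which break cAMP down, PDE2, for the high-affinity enzyme, rose from 10.80, 10.81 and 10.75 to 12.72, 12.34 and 12.63 (difference 1.78 ± 0.13, adjusted p = 6.59e-05), while PDE1, for the low-affinity enzyme, fell (-0.94 ± 0.15). TPK2, for a catalytic subunit of the kinase, stood at 11.81, 11.81 and 12.48 at -10 min and 9.80, 10.44 and 9.71 at 7 min (difference -2.05 ± 0.27, adjusted p = 0.000609). The number of rises was 3 without BY003, BY008 or BY012, without the -10 min array of BY008, or without a 7 min array of any experiment.

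Of 116 protein kinases 10 rose and 44 fell (37.9%), with a median difference of -0.54. The largest falls outside the nitrogen lists were CMK2, a calmodulin-dependent kinase (-2.54 ± 0.39), PTK2, which activates the plasma membrane proton pump (-2.36 ± 0.22), NPR1, which is held inactive by TORC1 and stabilises amino acid permeases (-2.32 ± 0.19), and TOS3, which activates Snf1 (-2.32 ± 0.28). NPR1 levels were 12.41, 12.43 and 12.71 at -10 min and 10.11, 10.39 and 10.10 at 7 min. The rises were led by RCK1, a kinase of the oxidative stress response, at 6.77, 6.45 and 7.37 at -10 min and 8.55, 8.68 and 9.75 at 7 min (difference 2.13 ± 0.27, adjusted p = 0.000506). STE20, of the PAK family, rose by 1.25 ± 0.13, SKS1 by 1.10 ± 0.12, and CTK1, which phosphorylates RNA polymerase II, by 0.98 ± 0.13. The number of kinases that rose was 6 without BY003.

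Of 43 serine/threonine phosphatase genes and their subunits, 7 rose and 20 fell (46.5%), with a median of -0.54. Subunits that target the phosphatase Glc7 to glycogen fell. PIG2 levels were 12.29, 11.17 and 13.00 at -10 min and 8.88, 9.11 and 8.73 at 7 min (difference -3.25 ± 0.35, adjusted p = 0.00027), and GIP2 changed by -2.69 ± 0.48. PPT1, for a phosphatase acting on the chaperone Hsp90, rose, from 9.45, 8.98 and 8.43 to 11.57, 11.43 and 11.96 (difference 2.70 ± 0.26, adjusted p = 0.000181). SAP185, for a partner of Sit4, rose by 1.56 ± 0.20, and PSY2, for a partner of Pph3, by 1.31 ± 0.13. The number that fell was 10 without BY003, 13 without BY012, and 11 without the 7 min array of BY003 or of BY012.

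In the GID ubiquitin ligase, which marks gluconeogenic enzymes for breakdown when glucose becomes available, the subunits split. Of 8 measured members 7 fell (87.5%) and 1 rose, with a median difference of -1.55 (-1.40 in BY003, -1.20 in BY008 and -2.01 in BY012). FYV10, for a subunit of the catalytic core, stood at 10.78, 10.63 and 11.83 at -10 min and 8.59, 8.60 and 8.69 at 7 min (difference -2.46 ± 0.28, adjusted p = 0.000339). VID28, for a scaffold subunit, changed by -2.08 ± 0.21, and UBC8, for the ubiquitin-conjugating enzyme that works with the ligase, by -2.02 ± 0.24. The remaining members were named after their values were seen and were GID7 (-1.77 ± 0.17), VID30 (-1.33 ± 0.20), RMD5 (-1.19 ± 0.22) and GID8 (-1.11 ± 0.21). VID30 is also on the nitrogen list left aside. VID24, for the substrate receptor, was the member that rose, at 12.46, 12.43 and 12.61 at -10 min and 13.79, 13.55 and 13.81 at 7 min (difference 1.22 ± 0.13, adjusted p = 0.00029). No member's groups overlapped, where 44.2% of all genes did not overlap downward and 19.5% upward. With any one experiment or array left out, 6 or 7 fell and VID24 rose each time. The list stood 0.58 above the other -10 min arrays in the -10 min array of BY012, and 7 members fell without that array.

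Genes for sorting membrane proteins to the vacuole were called downward. Of 18 ESCRT and multivesicular body genes 12 fell (66.7%) and 0 rose, with a median of -0.77. In all 18 the levels of the 2 times did not overlap downward, against 44.2% of all genes. SRN2, of the complex ESCRT-I, changed by -1.73 ± 0.26. VPS20 and DID4, of the ESCRT-III filament that pinches off vesicles, changed by -1.68 ± 0.14 and -1.44 ± 0.24. VPS20 levels were 11.33, 11.12 and 11.79 at -10 min and 9.80, 9.59 and 9.80 at 7 min (adjusted p = 0.00011, limma). The count was 7 without BY003. Of 13 arrestin adaptors, which bring the ubiquitin ligase Rsp5 to permeases, and Rsp5 itself, 5 fell and 1 rose. ROD1 stood at 10.83, 10.84 and 11.81 at -10 min and 8.89, 8.87 and 8.57 at 7 min (difference -2.39 ± 0.35, adjusted p = 0.00106), ROG3 changed by -1.27 ± 0.21 and ALY1 by -1.03 ± 0.14. ART5, for the adaptor of the inositol transporter, rose (1.46 ± 0.18). The arrestin list stood 0.69 above the others in the -10 min array of BY012, and without that array 3 members fell, as they did without BY003, BY008 or the 7 min array of BY008 or BY012. Of 19 subunits and assembly factors of the vacuolar proton pump 1 fell, the Golgi isoform gene STV1 (-0.80 ± 0.15).

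Peroxisome assembly genes fell more often than they rose. Of 25 peroxins 13 fell (52.0%) and 1 rose, with a median of -0.72. PEX17, of the docking complex for import, stood at 9.18, 9.35 and 9.77 at -10 min and 6.87, 7.17 and 6.78 at 7 min (difference -2.50 ± 0.27, adjusted p = 0.000249). PEX18, for a co-receptor of matrix protein import, changed by -1.84 ± 0.42 and PEX29, for a membrane protein that affects peroxisome number, by -1.61 ± 0.23. Without BY003, 8 fell. Of 22 genes on the beta-oxidation and fatty acid activation list, which also holds the transcription factor genes OAF1 and PIP2, 4 fell. Among them were PXA2, for a subunit of the fatty acyl transporter (-1.70 ± 0.23), CRC1 (-1.27 ± 0.25, with overlapping groups) and TES1, for a thioesterase (-1.18 ± 0.19). This list stood 0.89 and the peroxins 0.51 above the other -10 min arrays in the -10 min array of BY012, where all genes stood 0.11 above. Without that array 4 and 13 members fell.

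Membrane lipid genes fell in part. Of 31 phospholipid synthesis genes 15 fell (48.4%) and 2 rose, with a median of -0.60. INO4, the activator gene, was at 11.29, 11.25 and 11.55 at -10 min and 9.30, 9.24 and 9.28 at 7 min. CRD1, for cardiolipin synthase, changed by -2.05 ± 0.25, and PSD1, for the mitochondrial phosphatidylserine decarboxylase, by -1.41 ± 0.15. INM1, for an inositol monophosphatase, rose, at 9.59, 9.29 and 9.33 at -10 min and 12.20, 11.75 and 12.23 at 7 min (difference 2.65 ± 0.15, adjusted p = 3.4e-05), with groups far apart. The count of falls was 7 without BY003. Of 25 sphingolipid genes 4 rose and 6 fell, both smaller shares than those of all genes, and 15 were not called. Among the largest rises were the synthesis genes SUR2 (1.09 ± 0.20) and AUR1 (0.77 ± 0.13). Among the largest falls were genes for breakdown, namely the ceramidase genes YPC1 (-2.10 ± 0.27) and YDC1 (-1.27 ± 0.19) and the phospholipase C gene ISC1 (-1.09 ± 0.14). These examples were picked by size, and synthesis and breakdown were not counted apart over the whole list. YPC1 levels were 11.61, 11.56 and 12.27 at -10 min and 9.75, 9.82 and 9.58 at 7 min. Without BY003, 2 sphingolipid genes rose. Of 17 fatty acid synthesis and desaturation genes 2 rose, ELO2 and ELO3, and 1 fell, ELO1. Of the fatty acid elongase genes ELO1, for medium chains, fell, with levels of 13.33, 13.50 and 13.29 at -10 min and 12.26, 12.59 and 11.68 at 7 min (difference -1.20 ± 0.17, adjusted p = 0.000937), whereas ELO2, for longer chains, stood at 11.54, 12.19 and 10.28 at -10 min and 12.56, 12.74 and 12.37 at 7 min (difference 1.22 ± 0.28, adjusted p = 0.00779). The ELO2 difference was 0.80 without the -10 min array of BY012, in which ELO2 was lowest, and 0.78 without that experiment. ELO3 rose by 1.33 ± 0.37, a call lost without BY003 or without the 7 min array of BY012. The ELO3 difference was 0.76 without BY012.

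Small metabolic lists held few calls, in shares that for the most part lay near or below those of all genes. Of 12 glycerol genes 2 rose and 2 fell (16.7% each). GPD1, for the NAD-dependent glycerol-3-phosphate dehydrogenase that starts it, fell, with levels of 13.75, 13.59 and 14.14 at -10 min and 11.93, 12.49 and 11.94 at 7 min (difference -1.71 ± 0.21, adjusted p = 0.000494). The phosphatase genes of the next step were the rises, GPP1 at 13.40, 13.22 and 13.23 at -10 min and 14.67, 14.50 and 14.73 at 7 min (difference 1.35 ± 0.13, adjusted p = 0.000158) and GPP2 by 1.34 ± 0.22. The 7 min levels of GPP1 lay close to the highest value of the table, 15.14. Of 10 heme genes 2 rose, 2 fell and 6 were not called. HEM3, for porphobilinogen deaminase, rose from 9.43, 9.66 and 9.58 to 11.04, 10.88 and 10.95 (difference 1.40 ± 0.15, adjusted p = 0.000286) and HEM1, for the first enzyme, by 0.84 ± 0.17, and HMX1, for the heme oxygenase that breaks heme down, stood at 10.62, 10.37 and 10.97 at -10 min and 8.36, 7.97 and 8.26 at 7 min (difference -2.46 ± 0.19, adjusted p = 7.45e-05). HEM15, for the last enzyme of synthesis, was lower (-0.81 ± 0.23, adjusted p = 0.0184), a call lost without BY003 (adjusted p = 0.0873, limma), without the 7 min array of any experiment, or in the fit without the replicate block (adjusted p = 0.129, limma). Its difference was -0.52 when the -10 min array of BY012 was omitted. With any one experiment or array left out, the falls numbered 1 or 2 in the heme list and 1 to 3 in the glycerol list. Of 13 polyamine genes 3 rose and 4 fell. MEU1, of the methylthioadenosine salvage pathway (1.44 ± 0.16), and SPE2, for S-adenosylmethionine decarboxylase (1.14 ± 0.16), rose. The exporter gene TPO4 stood at 11.82, 11.61 and 12.86 at -10 min and 9.61, 9.14 and 9.87 at 7 min (difference -2.56 ± 0.25, adjusted p = 0.000184), and AGP2, for a regulator of polyamine and carnitine uptake, changed by -1.57 ± 0.17.

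**Figure D5:**
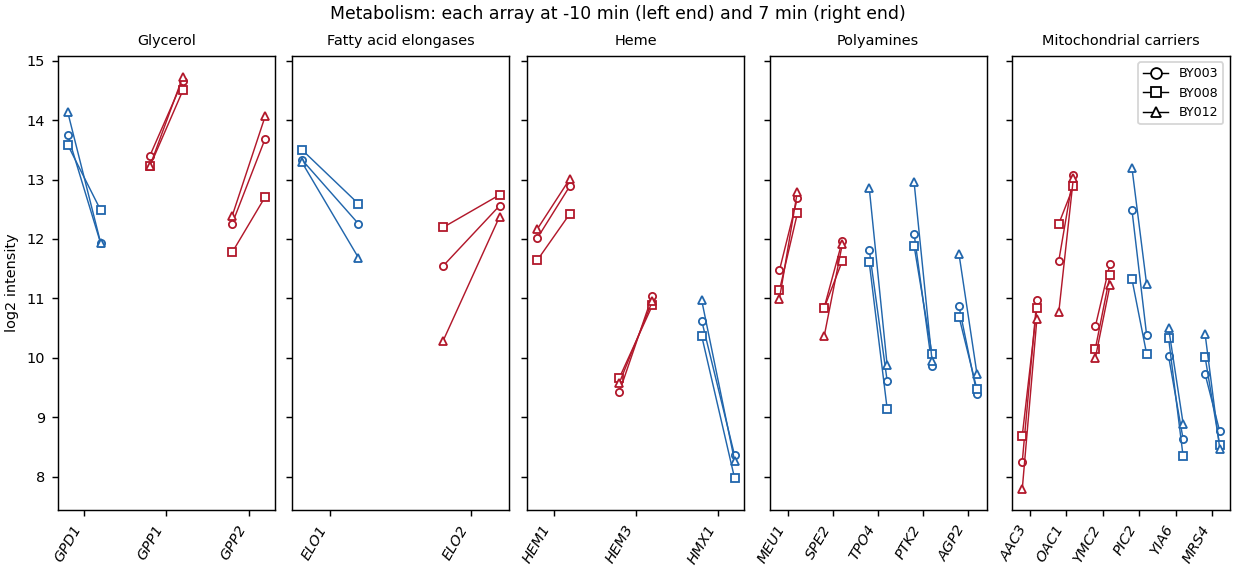
Log2 intensity in each array of genes in 5 small pathways, with the -10 min array at the left end and the 7 min array of the same experiment at the right end of each line. Within each pathway red genes rose and blue genes fell, and ELO2 spread widest at -10 min, from 10.28 in BY012 to 12.19 in BY008.

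Of 26 mitochondrial carrier genes 7 rose and 8 fell. AAC3, for the ADP/ATP carrier known from anaerobic growth, stood at 8.24, 8.68 and 7.78 at -10 min and 10.98, 10.83 and 10.65 at 7 min (difference 2.58 ± 0.26, adjusted p = 0.000207). OAC1, for the oxaloacetate carrier, rose by 1.44 ± 0.30 and YMC2 by 1.17 ± 0.21. Among the falls were PIC2, for a copper and phosphate carrier (-1.77 ± 0.18), YIA6, for an NAD carrier (-1.67 ± 0.17), and MRS4, for an iron carrier (-1.46 ± 0.19). YIA6 levels were 10.03, 10.34 and 10.51 at -10 min and 8.63, 8.34 and 8.89 at 7 min. Of 34 genes of mitochondrial protein import and folding 4 rose and 8 fell. PAM18, of the import motor, rose by 1.43 ± 0.15, and the chaperone gene MDJ1 changed by -1.54 ± 0.20. The import list held 1 rise and 3 falls without BY003 or its 7 min array, 2 and 4 without BY012, 2 and 3 without its 7 min array, and 3 and 5 without its -10 min array. In the thiamine list 3 rose and 4 fell of 16, and 1 rose without BY003. PHO3, for the phosphatase that frees thiamine from its phosphates outside the cell, stood at 8.45, 7.54 and 8.06 at -10 min and 10.94, 9.78 and 11.14 at 7 min (difference 2.60 ± 0.22, adjusted p = 9.79e-05). The zinc transporter gene ZRT2 rose by 1.92 ± 0.21 and the copper transporter gene CTR1 by 0.74 ± 0.14, whereas CTR2, for the vacuolar copper exporter, changed by -0.99 ± 0.17.

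About as many chromosome segregation genes fell as were not called. Of 33 cohesin, condensin and kinetochore genes 17 fell (51.5%) and 0 rose, with a median of -0.72. ECO1, for the acetyltransferase that establishes cohesion, stood at 8.76, 9.55 and 9.02 at -10 min and 6.70, 7.48 and 6.56 at 7 min (difference -2.20 ± 0.16, adjusted p = 6.51e-05). DAM1, of the ring that joins kinetochores to microtubules, stood at 11.12, 11.06 and 11.16 at -10 min and 9.63, 10.01 and 9.56 at 7 min (difference -1.38 ± 0.14, adjusted p = 0.000231), and IRR1, a cohesin subunit, changed by -1.29 ± 0.21 with overlapping groups. Without BY003, 9 fell. Of 16 daughter-cell and cell separation genes 2 rose and 3 fell (18.8%), and the rises were lost without BY008, BY012 or the 7 min array of BY003 or BY012, or without the -10 min array of BY008 or BY012. Among the falls, CDC6, for loading of the replicative helicase, changed by -1.65 ± 0.18, and SWI5, for a factor of late mitosis, by -1.13 ± 0.15. Of 38 DNA repair and checkpoint genes 4 rose and 10 fell, and the checkpoint kinase gene RAD53 stood at 9.17, 10.10 and 9.58 at -10 min and 7.54, 8.75 and 7.38 at 7 min (difference -1.73 ± 0.21, adjusted p = 0.000486). The photolyase gene PHR1 changed by -1.74 ± 0.20 and the glycosylase gene MAG1 by -1.45 ± 0.22. The repair list held as few as 1 rise, when the 7 min array of BY003 was left out, and 2 when BY003 or the array of BY012 at 7 min was.

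Bud site and cytoskeleton genes showed small falls whose number rested on single experiments. Of 22 septin, bud neck and bud site genes 9 fell (40.9%, against 30.5% of all genes) and 0 rose (median -0.52). Among the falls were KCC4, a septin-associated kinase (-1.60 ± 0.19), BUD2, for an activator of the bud site GTPase (-1.06 ± 0.17), and BNI4, which ties chitin synthase to the septins (-0.89 ± 0.15). The count was 2 without BY003, 5 without the -10 min array of BY003 or of BY008, 4 without the 7 min array of BY003 and 2 without that of BY012. This list stood 0.50 below the other -10 min arrays in the -10 min array of BY012, and 6 fell without it. Of 33 actin and polarity genes 13 fell (39.4%) and 1 rose (median -0.55), with AIP1 at -0.83 ± 0.14 and ARP3 at -0.82 ± 0.17. Without BY003 0 of the 33 fell, without BY008 6, without the 7 min arrays of BY003, BY008 and BY012 5, 7 and 3, and without the -10 min array of BY012 8. Of 33 meiosis and sporulation genes 12 fell (36.4%, against 30.5% of all genes) and 1 rose. Their median level at -10 min was low, 7.85 against 11.11 for all genes. SPS4 stood at 11.27, 11.67 and 10.17 at -10 min and 8.70, 8.64 and 8.22 at 7 min (difference -2.52 ± 0.24, adjusted p = 0.000157, limma). The count of falls was 8 without BY008 or without the 7 min array of any experiment.

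The secretory pathway showed few calls. Of 18 genes of the COPI and COPII coats 1 rose and 2 fell, with SEC12, which starts COPII coat assembly, at 9.82, 10.11 and 9.85 at -10 min and 11.06, 10.87 and 11.24 at 7 min (difference 1.13 ± 0.15, adjusted p = 0.000617). Of 22 ER translocation and signal peptidase genes 3 rose and 0 fell (median -0.04). Of 45 N-glycan and mannose transfer genes 1 rose and 7 fell, led by OCH1, which begins the outer mannose chain in the Golgi, at 11.13, 11.58 and 11.53 at -10 min and 9.36, 9.45 and 9.28 at 7 min (difference -2.05 ± 0.23, adjusted p = 0.000316). ALG14, of the second step of glycan assembly, changed by -1.51 ± 0.19 and MNN1 by -1.24 ± 0.18. Of 26 cell wall proteins 0 rose and 6 fell, and of 33 genes of glucan and chitin synthesis and remodelling 1 rose and 9 fell, with SKN1 (-1.38 ± 0.25) and BIG1 (-1.34 ± 0.12) among the falls. Of 20 SWI/SNF and RSC remodeller subunits 1 rose and 1 fell. The QDR3 gene of multidrug export changed by -2.00 ± 0.21, and VNX1, for a vacuolar cation exchanger, by -1.41 ± 0.19. With any one experiment or array left out, the falls numbered at least 4 for the mannose list, 2 for the cell wall proteins (without BY008) and 2 for the glucan list (without the 7 min array of BY012). The coat list then held 0 falls, except for 1 when BY012 at -10 min was omitted, and the ER list held 0 rises without BY003.

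Genes for using other carbon sources changed little as a list, with 2 rises and 5 falls of 22 and a median of -0.23. GAL7, of galactose use, stood at 8.41, 8.46 and 9.32 at -10 min and 6.35, 6.23 and 6.72 at 7 min (difference -2.30 ± 0.21, adjusted p = 0.000142). The glyoxylate cycle genes MLS1 and ICL1 changed by -1.39 ± 0.23 and -1.09 ± 0.22. MLS1 levels overlapped between the times, and the list stood 0.74 above the other -10 min arrays in the -10 min array of BY012. Without that array 3 rose and 5 fell, and without BY003 0 rose and 5 fell.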

How the data were processed

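Affymetrix arrays of yeast RNA were read from the deposited table, which holds linear intensity values per probe set, as deposited by the authors. Per the submitters' processing notes the tools were R 2.10.0, affy and RMA, with no further detail. Of 10928 probe sets, 5498 are annotated to an S. cerevisiae gene and 3470 to none. Another 1747 are annotated to genes outside the S. cerevisiae reference and were taken to be for S. pombe. The brightest probe set was kept for 47 genes with several, 119 of the 5449 genes rest on probe sets that may read several transcripts, and 12 symbols were updated.

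Log2 values of the 9 arrays at -10, 7 and 24 min were fitted with limma 3.58.1 in R 4.3.3, with experiment as a fixed block (4 residual and 3.55 prior degrees of freedom). In this fit the 24 min arrays add only to the estimate of the spread. Where a single -10 min or 7 min array is left out, the 24 min array of that experiment also enters the fitted difference. Adjusted p values are Benjamini-Hochberg over all genes, called under 0.05. The experiment codes in the labels give the pairing. Deviations from the time means at -10 and 7 min correlated within BY003, BY008 and BY012 at r = 0.08, 0.63 and 0.56. P-values compare the fitted difference with the spread left among these arrays after time and experiment are fitted. Differences in level between experiments do not enter that spread. In simulated data of 5449 genes, 200 of them changed (log2 changes of 0.5, 1 and 2), the fit called 12 of 67, 43 of 67 and 64 of 66, with 3 false calls among 122. Far fewer genes changed there than the 60.6% called in the data, and the simulation held no shift of the median gene. Its rates therefore do not carry over to the data.

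Named genes are the 20 largest rises and falls outside the 2 lists left aside and up to 3 in each direction per list (6 for factors and kinases), with 1 sign in all experiments. The text takes its examples from these 250, apart from the HAP and GID subunits said to be named after their values were seen. The members and lists were chosen with earlier results of these data known. Alternatives were no block, a random block, 6 arrays, other scalings, omission of dim genes, the trend and robust options of limma, stricter thresholds, other probe set rules, and leaving out each experiment or array. Counts on both scales with an experiment or array left out were added after seeing the data. Of the other times, the 24 min arrays entered the fit alone, the 3 min array is given as a description, and the rest were left out. Promoter sequences were not analysed here. Figures used matplotlib 3.10.9.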

Additional observations from a re-analysis of the deposited data

How the results depend on the processing

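The comparison called 3303 genes (982 higher and 2321 lower). A threshold of 0.01 called 2174, of which 1483 were lower, and requiring an absolute log2 difference of at least 1 left 1351, 518 higher and 833 lower. With any one experiment or array left out, the count lay between 2141 and 3057, with 647 to 903 higher and 1494 to 2168 lower. The lowest was that without BY003, and the cause was not tested. No direction of a named gene reversed under any alternative run. In the fit without the replicate block, which leaves the pairing out, 2857 genes were called (910 higher, 1947 lower). Of these 2847 were also called with it, and 12 of the 250 named genes lost their call. Quantile normalization ended 1 of those calls, a random block 6, and the addition of unlisted probe sets 3. Of the 250, 42 lost their call without BY003, 16 without BY008 and 13 without BY012, and 50 did so in at least 1 fit with an experiment or array left out. Of those 50, the text gives differences for HEM15 and ELO3 alone.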
